A study of Mus musculus with 35 samples.

Results

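Transcripts of 33 genes of the p53 pathway were followed through 35 single mouse embryonic fibroblasts, 48 h after a dose of 1 Gy. They comprised 32 genes described as targets of p53 and Trp53, which encodes p53 itself. The members were given as a list of symbols, all 33 were found among the 19085 genes of the deposited table, and 28 of them were measured, a term used here for genes at 5 CPM (counts per 1e+06 reads on genes) or more in the sum of the cells that also had 5 or more reads in 5 of them. In all, 8390 genes were measured. Bbc3, Sesn1, Gdf15, Fas and Ddit4 were the 5 members that were not.

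Of the fibroblasts 21 held micronuclei, small chromatin bodies that lie apart from the nucleus, and 14 had none. Both groups were C57Bl/6J cells kept at 3% oxygen, irradiated with 1 Gy, moved to membrane dishes at 32 h and cut out by laser at 48 h after staining of DNA with PicoGreen. Every cell had been irradiated, so levels without irradiation were not analysed here. Each library is 1 cell copied by Smart-seq2, which reads whole transcripts and carries no molecular identifiers. The labels name no embryo or culture, so each group counts as 1 sample: there is no test, and values describe these cells.

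The protein p53 is a transcription factor that damaged DNA stabilises by freeing it from the ligase Mdm2. It then raises genes that halt the cell cycle, foremost Cdkn1a, genes that trigger death through mitochondria or death receptors, genes of repair and nucleotide supply, and Mdm2 itself, which closes a feedback loop. Embryonic fibroblasts are known to answer ionising radiation mainly by arrest that depends on Cdkn1a.

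Depth ranged from 57514 to 1794113 reads per micronucleated cell and from 56766 to 2023111 reads per cell without micronuclei, and genes with a read from 2391 to 8964 and from 3861 to 8229. Mitochondrial reads made up 0.444% to 25.7% and 0.990% to 3.81%. All 10 fibroblast markers had at least 5 reads in some cell, and their summed level was 4189 to 22977 CPM in micronucleated cells and 6696 to 21611 CPM in the others. Macrophage markers reached 5 reads for 2 or more of 9 genes in 4 micronucleated cells (cells 1, 4, 10 and 18) and in 0 cells without micronuclei. Their summed level was 0 to 16047 CPM and 0 to 64.1 CPM. The defining endothelial genes Cdh5 and Tie1, the epithelial Cdh1 and Krt8, the muscle regulators Myod1 and Myog and the adipocyte genes Adipoq, Plin1 and Cidec had 0 reads. Other markers of these lists were read: at least 5 reads were found for the muscle gene Acta1 in 26 of 35 cells and the epithelial Krt19 in 18. Des and Fabp4 had them in 4 cells each, Pecam1, Epcam and Krt18 in 1 each, and Kdr and Tek in 0. Summed muscle markers reached 6445 CPM with and 2144 CPM without micronuclei.

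The DNA element that p53 binds is a pair of decamers. The p53 consensus decamer, which is its own reverse complement, was searched as a pair with at most 1 base between and at most 1 mismatch in all, in RefSeq windows (GRCm38.p6) from 250 bases before to 50 bases after annotated starts. Windows existed for 26 members. The pair was present in 5 of their 36 windows, against 58 of the 32851 windows of all genes (0.177%). These 5 are given here because they carry such a pair close to a start. Each pair has 1 mismatch to the consensus, and those of Bax and Polk have 1 base between the decamers. The sequences read along the gene, with the pair in capitals.

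Cdkn1a (chr17:29090888-29090978, plus strand): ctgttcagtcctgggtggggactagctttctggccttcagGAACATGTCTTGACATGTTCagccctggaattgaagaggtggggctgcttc
Ccng1 (chr11:40755422-40755521, minus strand): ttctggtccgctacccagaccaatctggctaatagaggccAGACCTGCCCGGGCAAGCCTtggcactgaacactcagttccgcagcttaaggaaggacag
Rps27l (chr9:66946256-66946355, plus strand): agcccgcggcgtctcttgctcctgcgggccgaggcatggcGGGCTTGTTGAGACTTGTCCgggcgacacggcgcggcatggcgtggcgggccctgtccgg
Bax (chr7:45467050-45467148, minus strand): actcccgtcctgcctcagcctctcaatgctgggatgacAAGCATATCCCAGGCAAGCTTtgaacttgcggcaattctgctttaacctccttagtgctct
Polk (chr13:96519358-96519437, minus strand): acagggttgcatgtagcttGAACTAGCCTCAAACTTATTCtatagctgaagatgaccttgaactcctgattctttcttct

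In Cdkn1a the pair begins 51 bases before the more upstream of its annotated starts, in Ccng1 195, in Rps27l 117, in Bax 212 and in Polk 231 bases before a start. The start in Polk lies inside the gene and that in Rps27l just downstream of its first one. A match describes letters and shows no binding. A window without one says nothing about p53 at that gene, since sites farther away were not searched.

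Cdkn1a, the inhibitor of cyclin-dependent kinases p21, was read in each of the 35 cells. It ranged from 634 to 4517 CPM around a median of 1493 CPM in micronucleated cells, and from 174 to 3187 CPM around a median of 1249.5 CPM in cells without micronuclei. The groups overlapped between 634 and 3187 CPM, with 1 micronucleated cell above and 3 cells without micronuclei below. Its summed level was 1606 CPM (95% exact Poisson interval 1582 to 1629) against 1478 CPM (1456 to 1500.0), intervals that cover counting error only. The log2 ratio, always log2 of CPM + 1 with over without micronuclei, was 0.12 and lay between −0.07 without cell 7 lacking micronuclei and 0.39 without cell 4 lacking them.

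Cells differed more in Cdkn1a than the groups did. The highest cell was micronucleated cell 2, followed by cells 4, 12 and 6 without micronuclei at 3187, 3170 and 3161 CPM. The 3 lowest, cells 13, 1 and 7 at 174, 328 and 500.2 CPM, were also without micronuclei. The coefficient of variation was 51.9% in micronucleated cells, 32.4% without cell 2, against 70.4% in cells without micronuclei, where leaving out any cell kept it between 64.0% and 74.1%. Cdkn1a had a rho (Spearman rank correlation across the 35 cells, a description without a p-value) of 0.113 with the number of genes detected, −0.438 with the mitochondrial share and −0.355 with the share of spike-in reads; the part of these measures in its spread was not tested.

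**Figure D1:**
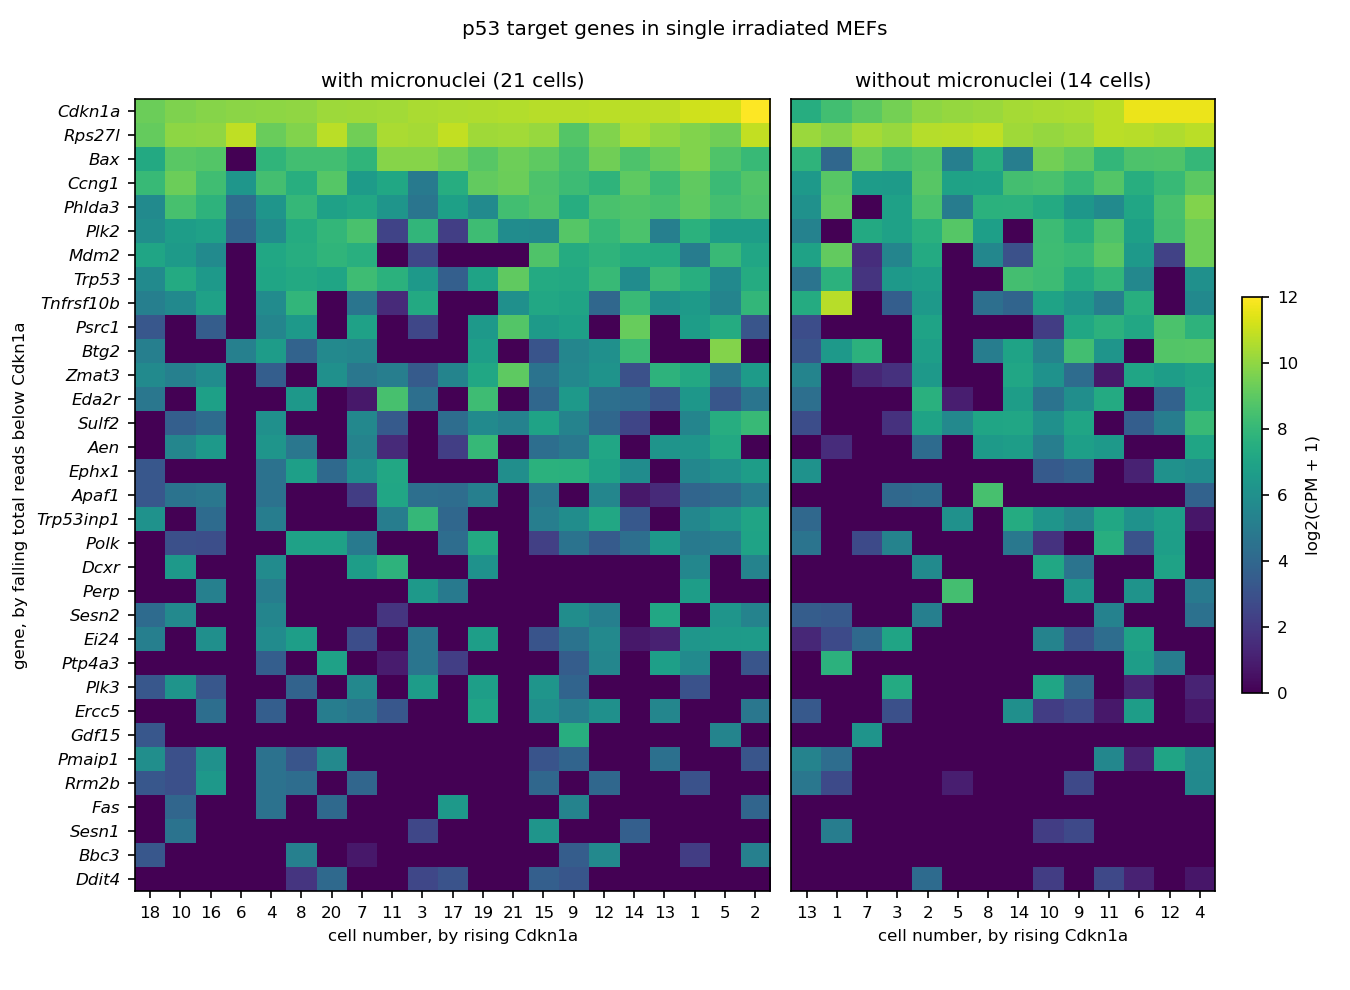
Level of each of the 33 genes (rows) in each cell (columns), as log2(CPM + 1) by colour. Cells with micronuclei are on the left and cells without on the right, each by rising Cdkn1a; the abundant Cdkn1a and Rps27l were read in every cell, while the lower rows are dark, at 0 reads, in most cells.

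The measured members spanned a wide range of levels. Per kilobase of merged exons and over all reads, Rps27l, a ribosomal protein variant, stood at 1592 CPM per kb, Cdkn1a at 433.5, the pore-forming death protein gene Bax at 258, and Phlda3, which blocks Akt at the membrane, at 152 CPM per kb. Ccng1, whose cyclin G1 guides a phosphatase to Mdm2, was at 81.1 CPM per kb and the Polo-like kinase gene Plk2 at 50.8. Btg2, Mdm2 and Trp53 followed close together at 37.9, 35.1 and 34.9 CPM per kb, differences far below their spread between cells. At the low end of the measured members stood the phosphatase gene Ptp4a3 at 2.13 and then Rrm2b, a small subunit of ribonucleotide reductase, at 0.892 CPM per kb. Rps27l shares sequence with Rps27, so its reads are uncertain.

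Detection followed the level. At least 5 reads of Cdkn1a, Ccng1 and Rps27l were found in 21 of 21 micronucleated cells and 14 of 14 others, of Bax in 20 and 14, and of Phlda3 in 19 and 13. Trp53 had them in 19 of 21 micronucleated cells and 11 of 14 others. Mdm2 had them in 15 of 21 micronucleated cells and 10 of 14 others, and was at 0 reads in 5 and 1. Per cell, a median of 18 (range 4 to 28) of the 33 members had at least 5 reads in micronucleated cells and 15 (range 9 to 21) in the others. In 17 and 13 cells deep enough to be thinned to 119337 reads, medians of 14 and 13 were found, so the groups overlapped at equal depth too.

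**Figure D2:**
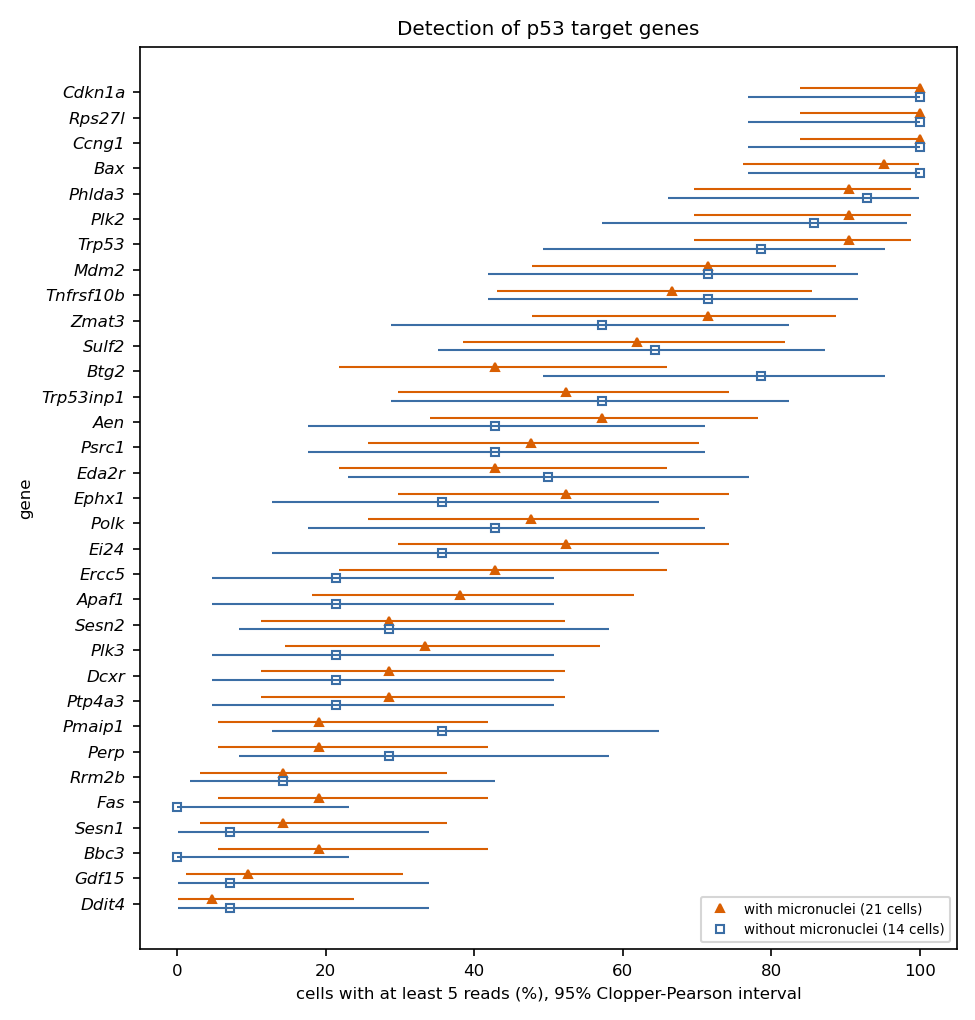
Share of cells with at least 5 reads of each gene, with exact 95% intervals that treat cells as independent draws. Triangles are the 21 cells with micronuclei, open squares the 14 without. Intervals of the groups overlap for each of the 33 genes, and Fas and Bbc3 stand at 0 of 14 cells without micronuclei.

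Across cells, members tended to be high where Cdkn1a was high. Of the 27 other measured members, 11 had a rho with Cdkn1a of at least 0.3, which 9.36% of all measured genes had, and 0 had a rho of −0.3 or lower (1.88% of all). The median rho was 0.233 over these members and 0.073 over all measured genes. The 11 were Psrc1, Zmat3, Trp53inp1, Phlda3, Ephx1, Sulf2, Polk, Plk2, Bax, Ccng1 and Ptp4a3. Cells share depth and the number of genes detected. Cdkn1a had a rho of 0.113 with genes detected, so making rho partial to that number could move most values only a little. The mitochondrial and spike-in shares were not treated in this way. With rho made partial to genes detected, 11 members again reached 0.3 (8.12% of all genes), 10 of them the same. After thinning, 11 of 24 measured members did, 10 of them the same (11.3% of all genes). Among members with at least 20 CPM and 5 reads in 10 cells, 10 of 20 did (10.5% of all such genes). Within micronucleated cells 10 of 27 did (12% of all genes), and within cells without micronuclei 14 of 27 (25.2%).

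The number depended on how levels were scaled and on single cells. With scran size factors 6 members reached 0.3 (4.88% of all genes), and with Pearson r of log2(CPM + 1) 7 did (7.65%). Without micronucleated cell 6 or without cell 13 lacking micronuclei it was 7 each. Psrc1, Zmat3, Trp53inp1 and Sulf2 reached it in each of these 4 settings, although Sulf2 did not in the next. Without the 2 cells farthest from the median in Cdkn1a (micronucleated cell 2 and cell 4 lacking micronuclei) 9 remained, without 6 cells of few genes or many mitochondrial reads 8, and without the 4 cells with macrophage markers 7 of the 11 and Sesn2.

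Psrc1, a spindle and microtubule protein that p53 induces, had the highest rho of the members, 0.524 over all cells. It was 0.329 among micronucleated cells and 0.739 among the others. Its level ran from 0 to 596 CPM (median 10.8) in micronucleated cells and from 0 to 388 CPM (median 4.86) in the others, with 7 and 6 cells at 0. Zmat3, a zinc finger protein that binds AU-rich RNA, had a rho of 0.494 (0.342 with and 0.501 without micronuclei) and ran from 0 to 521 CPM and from 0 to 137 CPM. The stress protein gene Trp53inp1, which aids p53 in inducing death genes, had a rho of 0.451 (0.366 and 0.587), with levels of 0 to 250.4 CPM and 0 to 164 CPM. These 3 kept a rho of at least 0.416 whichever cell was left out.

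Phlda3 was read in all but 1 cell, at 18.2 to 511 CPM with micronuclei and 0 to 841 CPM without; its rho of 0.424 was higher among micronucleated cells (0.613) than among the others (0.275), a difference that was not tested. Ephx1, the microsomal epoxide hydrolase, had a rho of 0.40 and Sulf2, an enzyme that trims heparan sulfate outside the cell, one of 0.384; both lay above 0.3 within each group. Overall 5 members did so, Trp53inp1, Zmat3, Psrc1, Ephx1 and Sulf2, against 3.41% of all measured genes. Polk, a DNA polymerase that copies past lesions, was at 0.353, Plk2 at 0.320, Bax at 0.320, Ccng1 at 0.311 and Ptp4a3 at 0.310. Of the members with a pair of decamers shown above, Bax, Ccng1 and Polk are in this group and Rps27l, at 0.200, is not. Polk was at 0.228 after thinning. With rho made partial to genes detected, Rps27l was at 0.311 and Ccng1 at 0.2999. Of all 27 other measured members 11 are in the group, and 7 members had no window to search. Whether such a pair goes with rho was not tested.

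**Figure D3:**
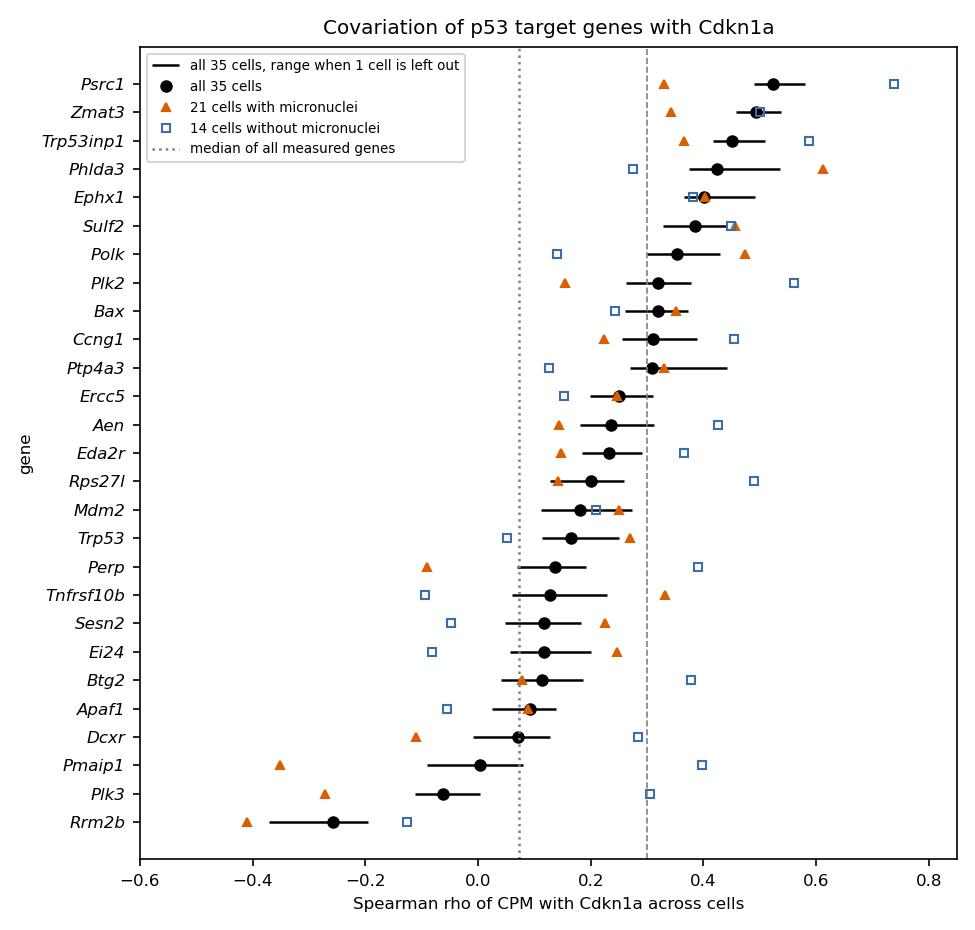
Spearman rho of each of the 27 other measured members with Cdkn1a: black points over 35 cells with the range when any cell is left out, triangles for cells with and open squares for cells without micronuclei. The dashed line marks 0.3 and the dotted line the median of all measured genes, 0.073; 25 of 27 black points lie above 0, as do 66.1% of all measured genes.

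By role, the regulators of p53 split. Ccng1 and Trp53inp1 passed 0.3, while Mdm2 had a rho of 0.181 (0.25 with and 0.209 without micronuclei). Mdm2 was at 659.9 CPM in cell 4 without micronuclei, which is second in Cdkn1a, but at 562 CPM in cell 1, which is next to last. Trp53 had a rho of 0.165, and its transcript was present at 0 to 535 CPM in micronucleated cells and 0 to 335 CPM in the others. The activity of p53 is known to be set largely at the protein, which was not measured here.

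The 9 measured death genes had a median rho of 0.136, and 2 of them, Phlda3 and Bax, passed 0.3. The death receptor genes Eda2r and Tnfrsf10b were at 0.233 and 0.128. Aen, a nuclease active in apoptosis, was at 0.237, Ei24 at 0.117, the junction protein gene Perp at 0.136 and Apaf1, which builds the apoptosome, at 0.092. Pmaip1, the BH3-only protein Noxa, was at 0.00397 over all cells, but at −0.351 with and 0.397 without micronuclei, a difference that was not tested. Pmaip1, Perp and Apaf1 were at 0 in 11, 16 and 5 of 21 micronucleated cells and in 8, 10 and 10 of 14 others.

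Among the remaining roles, Ercc5, the repair nuclease XPG, had a rho of 0.251 and Rrm2b the lowest of the members, −0.258. After thinning Rrm2b was at −0.024, and it reached 5 reads in only 3 micronucleated cells and 2 others. The antiproliferative gene Btg2 was at 0.113 and the kinase gene Plk3 at −0.0627. Sesn2, a sestrin that restrains mTORC1, was at 0.118 and Dcxr, a carbonyl reductase, at 0.0711. Plk3, Rrm2b and Ei24 were higher where more genes were detected, with a rho of 0.556, 0.540 and 0.519 with that number.

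**Figure D4:**
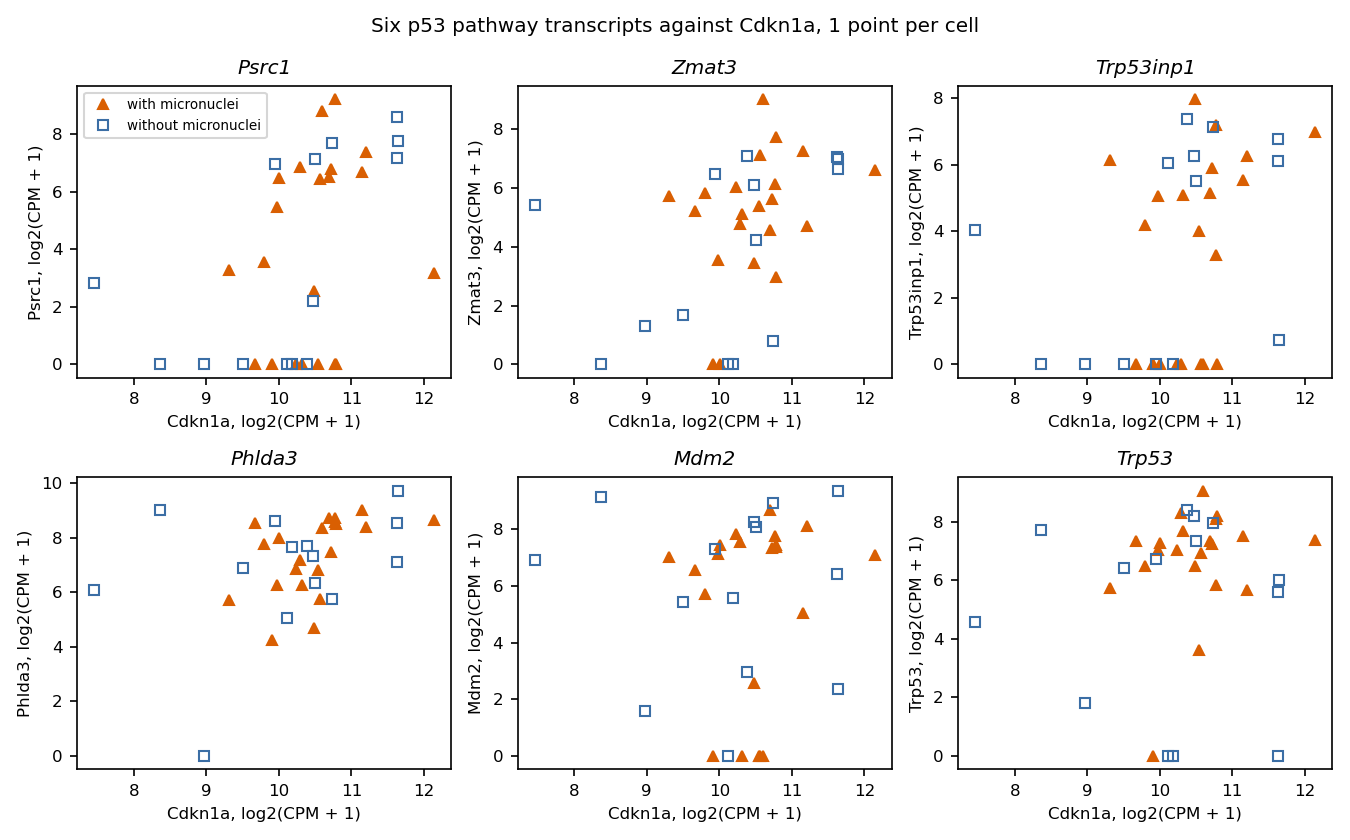
Level of 6 genes against Cdkn1a, both as log2(CPM + 1), with 1 point per cell: filled triangles with and open squares without micronuclei. Psrc1, Zmat3 and Trp53inp1 (rho 0.524, 0.494 and 0.451) lean upward with Cdkn1a, with some cells at 0 (7 and 6 for Psrc1), and Phlda3 does so too (0.424), while the points of Mdm2 (0.181) and Trp53 (0.165) are more scattered.

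The members were also summed in each cell. The CPM summed over the 26 measured members other than Cdkn1a and Rps27l had a rho with Cdkn1a of 0.610 over 35 cells. It was 0.769 with and 0.582 without micronuclei. No sum over 26 other genes was set beside it, and 66.1% of all measured genes had a rho above 0. A sum that includes Rps27l was not compared with Cdkn1a. At equal depth, the number of members with at least 5 reads had a rho of 0.695 with Cdkn1a over 30 cells, and the number of all measured genes with 5 reads one of 0.205. Cell 4 without micronuclei had the highest sum, 4614 CPM, and micronucleated cell 6, with 2391 genes detected, the lowest, 145 CPM. Cell 1 without micronuclei broke the pattern: its sum of 3809 CPM was the second highest while its Cdkn1a, 328 CPM, was the second lowest. In that cell Tnfrsf10b, a receptor of the death ligand TRAIL, reached 1694 CPM, against at most 278 CPM in the 21 micronucleated cells and 183 CPM in the other cells without micronuclei.

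Between the members themselves, the median rho over 378 pairs was 0.124, against 0.073 over all pairs of measured genes, and 15.3% of pairs reached 0.3, against 10.1%. Without the pairs of Cdkn1a the share was 13.4%. The closest pair was Ccng1 with Phlda3 at 0.594 (0.657 after thinning), ahead of Cdkn1a with Psrc1. Mdm2 had its highest values with Tnfrsf10b (0.469), Phlda3 (0.459) and Btg2 (0.418). The lowest pair was Rrm2b with Rps27l at −0.482. After thinning that pair was at −0.393 and Rps27l with Trp53 at −0.429. Rps27l was lower where more genes were detected (rho −0.536).

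Whether cells with micronuclei differed in this pathway was the comparison of the study's groups. Of the 28 measured members 14 had a log2 ratio above 0 and 14 below, where 56% of all measured genes lay above. At least 2-fold higher were 5 members, Ephx1, Sesn2, Dcxr, Trp53 and Zmat3 (22.9% of all measured genes were), and at least 2-fold lower were 4, Perp, Btg2, Sulf2 and Apaf1 (14.7% of all). These shares, 17.9% and 14.3%, are near or below those of all genes. The median log2 ratio was 0.06, against 0.15 over all measured genes. The first 5 and, of the lower ones, Perp, Btg2 and Sulf2 kept their sign with equal weight for every cell and whichever cell was left out, as 20.2% and 10.8% of all genes did. Whatever the size, 9 members above 0 and 7 below kept their sign in that way (33.5% and 20.1% of all). The count of 5 was 2 without micronucleated cell 13 and 3 without cell 5 or 7 lacking micronuclei, and 9 without cell 4 lacking them. The count of 4 was 2 without micronucleated cell 14 or without cell 4 lacking micronuclei, and 6 without cell 7 lacking them.

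Ephx1 was the member with the highest ratio. It ranged from 0 to 202 CPM (median 46.1) in micronucleated cells and from 0 to 67.9 CPM (median 0) in the others; 7 of 21 and 8 of 14 cells had no read. The summed level was 67.7 CPM (62.9 to 72.7) against 14.0 CPM (11.9 to 16.3), a log2 ratio of 2.20, 1.85 with equal weight and at least 1.91 whichever cell was left out. At least 5 reads were found in 11 of 21 and 5 of 14 cells, and after thinning in 11 of 17 and 2 of 13. Its exons overlap Gm36961 on the same strand, which can take or share reads.

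Trp53 ranged from 0 to 535 CPM (median 151) and from 0 to 335 CPM (median 74.5), so the groups overlapped widely while the median cell with micronuclei stood higher. Summed, it was at 195 CPM (187 to 203) against 89.7 CPM (84.4 to 95.4), a log2 ratio of 1.11, and 0.48 with equal weight. Zmat3 was at 84.4 CPM (79.1 to 90.0) against 38.7 CPM (35.2 to 42.4), also a log2 ratio of 1.11, with 27.7% of its reads in micronucleated cell 13 and 0.61 without that cell. Sesn2 at 35.6 against 8.53 CPM (log2 ratio 1.94) drew 53.6% of its reads from micronucleated cell 13, without which the ratio was 0.65 in log2. Dcxr at 44.5 against 14.2 CPM (log2 ratio 1.58) was at 0.26 with equal weight, 0.73 without micronucleated cell 11 and at 3.13 without cell 10 lacking micronuclei.

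On the lower side, Btg2 ranged from 0 to 888 CPM (median 13.1) in micronucleated cells and from 0 to 459.5 CPM (median 80.7) in the others, with 9 of 21 and 3 of 14 cells at 0. Its summed level was 62.2 CPM (57.6 to 67.0) against 143.9 CPM (137 to 151), a log2 ratio of −1.20, −0.77 with equal weight, −2.35 without micronucleated cell 14 and −0.63 without cell 4 lacking micronuclei. In 9 of 21 micronucleated cells and 11 of 14 others it reached 5 reads. Mdm2 was lower as well, at 129 CPM (122 to 136) against 226 CPM (217 to 235), a log2 ratio of −0.80 that shrank to −0.32 without cell 4 lacking micronuclei, which held 24.7% of its reads; the median cell was higher with micronuclei, 134 against 102 CPM. Sulf2 at 33.8 against 71.2 CPM (log2 ratio −1.05) was at −0.27 without that same cell, and its exons overlap Ncoa3 on the other strand.

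Single cells carried the other low ratios. Perp was at 6.77 against 41.4 CPM (log2 ratio −2.45), with 60.4% of its reads in cell 5 lacking micronuclei, without which it was at −0.92; it was read at least 5 times in 4 cells of each group. Apaf1 was at 22.1 against 46.1 CPM (−1.03), and 65.1% of its reads came from cell 8 lacking micronuclei. Without that cell its log2 ratio turned to 2.66; after thinning it was 0.14 and as a mean of log2 CPM 1.67. At least 5 reads of Apaf1 were found in 8 of 21 and 3 of 14 cells.

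The members with most reads lay within 2-fold. Bax was at 487.5 CPM (475 to 501) against 329 CPM (319 to 340.0), a log2 ratio of 0.56, with cells from 0 to 906 CPM (median 440.3) and from 14.8 to 704 CPM (median 301). It kept between 0.41 and 0.81 whichever cell was left out. Ccng1 was at 316 against 255.5 CPM (0.30), Phlda3 at 264 against 213 CPM (0.31, 0.03 with equal weight and 1.15 without cell 4 lacking micronuclei), Plk2 at 190.3 against 265 CPM (−0.47) and Rps27l at 1108 against 1482 CPM (−0.42, −0.49 to −0.34 in the leave-outs). The remaining measured members, among them the receptor genes Eda2r and Tnfrsf10b, Psrc1 and Polk, lay between −0.87 (Pmaip1) and 0.98 (Ercc5), several with a sign that hung on 1 cell. Tnfrsf10b, at −0.33, was at −1.06 with equal weight and at 0.97 without cell 1 lacking micronuclei. Psrc1, at 0.74, was at −0.35 without micronucleated cell 14, and Eda2r, at 0.45, was at −0.69 without micronucleated cell 11. Polk, at 0.32, was at −0.12 without micronucleated cell 13 and at 2.04 without cell 11 lacking micronuclei. Ptp4a3, at 0.30, was at −1.49 without micronucleated cell 13, and Rrm2b, at −0.20, was at 1.33 without cell 4 lacking micronuclei. Plk3 was at 1.04 without cell 10 lacking micronuclei and at −0.44 without micronucleated cell 7.

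**Figure D5:**
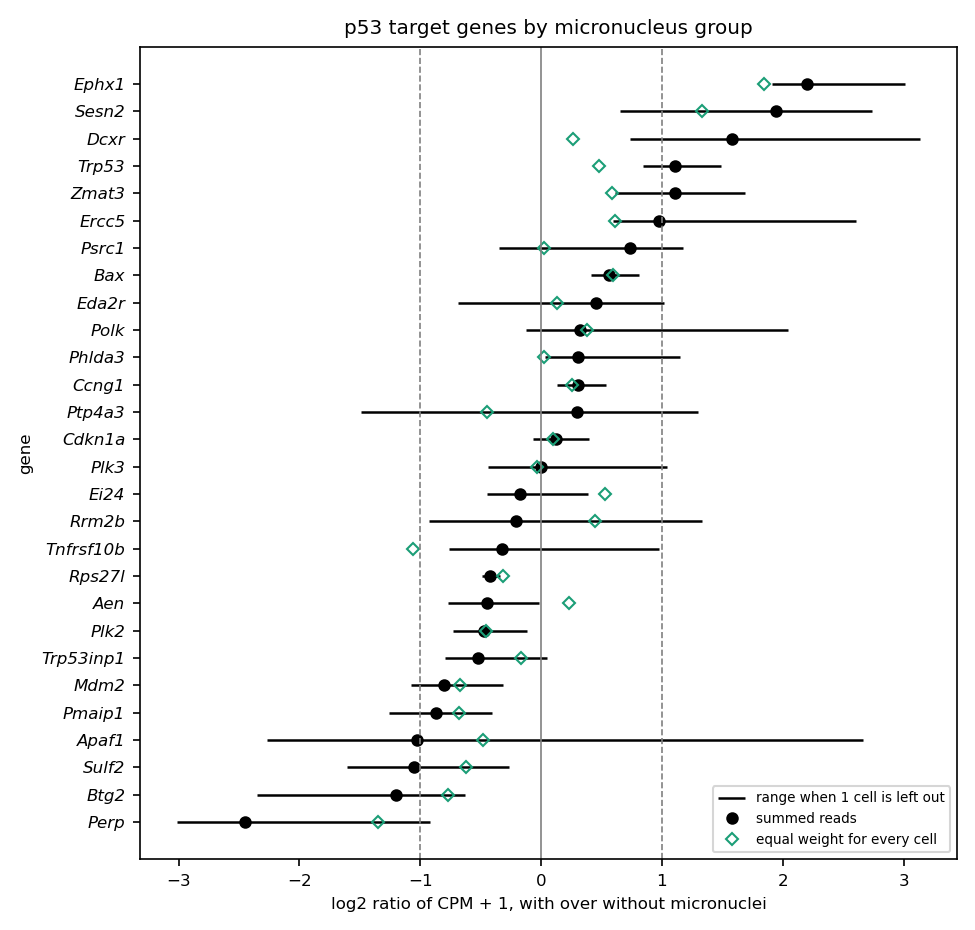
Log2 ratio of CPM + 1, cells with over cells without micronuclei, for the 28 measured members: black points from summed reads with the range when any cell is left out, diamonds with equal weight for every cell. Dashed lines mark 2-fold; 5 black points lie beyond the upper and 4 beyond the lower one, and the range of Apaf1 spans −2.27 to 2.66.

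The members that were not measured were rare transcripts. Bbc3, the BH3-only death protein PUMA, had 55 reads and Fas, a death receptor, 81 reads, all in micronucleated cells, with at least 5 reads in 4 of 21 cells each. Neither had a read in the cells without micronuclei, where 0 of 14 cells gives an exact 95% upper bound of 23.2% on the share of cells with 5 reads, not on the share of cells that express the gene. Against a floor of 3 reads over that group (0.258 CPM) the summed level was 19.2-fold higher for Bbc3 and 28.3-fold higher for Fas. These folds are not lower bounds, since they leave out the counting error of the micronucleated sums. Those sums were 4.96 CPM (3.74 to 6.46) for Bbc3 and 7.31 CPM (5.80 to 9.08) for Fas. Micronucleated cell 9 held 48.1% of the Fas reads and micronucleated cell 2 held 32.7% of the Bbc3 reads; after thinning 1 of 17 cells had 5 reads of Bbc3 and 2 of 17 of Fas, so at this depth the shares could not be told apart. Sesn1 had 52 and 24 reads, Gdf15, a secreted stress cytokine, 178 and 148, and Ddit4, an inhibitor of mTORC1, 16 and 13. Of the Gdf15 reads 52.8% were in micronucleated cell 9.

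Other genes of the pathway were read in the same way. Of 15 listed regulators of p53, 10 were measured and 0 reached a rho of 0.3 with Cdkn1a (median −0.013), which 9.36% of all measured genes did. By group, 3 were at least 2-fold higher and 2 at least 2-fold lower with micronuclei, against the 22.9% and 14.7% of all measured genes. They included Usp7, which removes ubiquitin from p53 and Mdm2, at 106 against 19.2 CPM (log2 ratio 2.41), the damage kinase gene Atr at 39.5 against 1.55 CPM (3.99), Mdm4, the partner of Mdm2, at 32.0 against 130.3 CPM (−1.99, and −0.55 without cell 5 lacking micronuclei) and the checkpoint kinase gene Chek1 at 2.53 against 10.2 CPM (−1.66). At least 5 reads were found in 14 of 21 and 8 of 14 cells for Usp7, in 9 and 1 for Atr, and in 2 and 5 for Chek1. Ppm1d, Rfwd2 and Trim24 had a rho of 0.161, 0.107 and −0.074.

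Of 20 further listed targets 12 were measured and 1 not analysed here. A rho of 0.3 was passed by 2, against 9.36% of all measured genes. They were the nuclear body gene Pml (0.331, but 0.235 after thinning) and Ankra2 (0.308, but 0.144 after thinning). Cpt1c was at 0.276. By group 1 was at least 2-fold higher and 0 lower, against the 22.9% and 14.7% of all measured genes. It was Ckap2, a spindle protein, at 49.98 against 21.1 CPM (log2 ratio 1.21, but 0.88 with equal weight, 0.65 without micronucleated cell 13 and 1.88 without cell 4 lacking micronuclei). Sertad1, Ccnd1 and Tigar had log2 ratios of 0.85, 0.76 and 0.71. Of 20 genes that p53 and p21 hold down through the DREAM complex, 17 were measured. Of these, 0 reached a rho of 0.3 (9.36% of all measured genes) and 1 passed −0.3 (1.88% of all). That was the cyclin gene Ccna2 (−0.304, and −0.137 after thinning). The median rho of the 17 was −0.021, and their summed CPM had a rho of −0.043 with Cdkn1a. By group 3 were at least 2-fold higher and 4 lower, against the 22.9% and 14.7% of all measured genes. The higher ones included Ccnb2, at a log2 ratio of 3.74, with 65.5% of reads in micronucleated cell 13 and 2.38 without it. Bub1 was at 2.69, and at 2.06 without micronucleated cell 9. The lower ones included Mcm2 (−2.34) and Plk1 (−1.77, with 77.4% of reads in cell 8 lacking micronuclei and 3.31 without it). At least 5 reads were found in 6 of 21 and 1 of 14 cells for Ccnb2 and in 5 and 1 for Bub1. They were found in 7 and 8 for Mcm2 and in 4 and 2 for Plk1. Without micronuclei, Ccnb2 and Bub1 were at only 1.64 and 1.03 CPM.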

How the data were processed

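The authors deposited whole-number read counts per gene and cell, not normalized. Per the submitters' processing notes the aligner was STAR and the build GRCm38.p5; per the deposited phenotype table, reads were counted with Rsubread and features filtered with scater. Neither versions nor strand setting is given in the sources used here, so reads of overlapping genes cannot be told apart. All 35 cells and 19085 genes entered; 62 spike-in rows stayed out of totals.

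Counts were summed over the 21 and the 14 cells and scaled to CPM, and log2 ratios of CPM + 1 were taken without a test, since each group counts as 1 sample. Spearman rho with Cdkn1a was computed on CPM over cells. Gene positions, merged exon lengths and overlaps come from GENCODE M21 (GRCm38), matched by symbol, and promoter windows from RefSeq (GRCm38.p6). Thinning drew 119337 reads per cell and left out 4 and 1 shallower cells. The functions were tested on simulated data. Members, lists and rules were chosen with earlier results of these data known.

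All members are named. Of each other list, up to 4 measured genes are named by the size of the log2 ratio (same sign with equal weight) and 4 by the size of rho, and of all measured genes the 5 highest and 5 lowest by rho; the result of 1 gene that this rule names is not reported here. The exact Poisson 95% intervals for levels hold counting error at most, because reads here are not independent molecules, and no spread between cells. The Clopper-Pearson intervals for shares treat cells as independent draws. Neither kind covers spread between cultures. Chosen after the data had been seen were partial rho, a run without the 6 cells that had fewer than 4000 genes or a mitochondrial share above 9%, and a run without the 4 cells holding 2 or more macrophage markers. Tools were R 4.3.3 with edgeR 4.0.16 (TMM factors) and scran 1.30.0, and Python 3.11.15 with scipy 1.17.1, pandas 2.3.3, numpy 2.4.6 and matplotlib 3.10.9.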

Additional observations from a re-analysis of the deposited data

How the results depend on the processing

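No paired analysis was possible because replicate numbers only name cells and nothing was tested. The median log2 ratio of the members, 0.06, was 0.41 as a mean of log2 CPM and 0.30 over all 33 genes with a read; it lay between −0.16 and 0.25 when any cell was left out. The number of members at least 2-fold higher, 5, was 3 with TMM factors and with median-of-ratios size factors (Ephx1, Sesn2 and Dcxr), and 2 with equal weight, with scran size factors and after thinning (Ephx1 and Sesn2). The number at least 2-fold lower, 4, was 2 with equal weight and with scran size factors (Perp, and Tnfrsf10b, which is not among the 4), 2 with 5 CPM added (Perp and Btg2), 1 as a mean of log2 CPM (Btg2) and 1 after thinning (Perp). Leaving out cells gave 2 to 9 higher and 2 to 6 lower. Apaf1 reversed to 1.67 as a mean of log2 CPM, to 0.14 after thinning, and lay between −2.27 and 2.66 in the leave-outs. No other member past 2-fold changed sign in any setting run. The median rho with Cdkn1a, 0.233, was 0.137 with scran size factors, 0.173 with no filter, 0.274 with a strict filter (20 CPM and 10 cells), 0.305 in cells without micronuclei alone and 0.177 without the 2 cells farthest in Cdkn1a. The 11 members at 0.3 were 7 with Pearson r and 6 with scran factors, and 7 to 12 in the leave-outs, whose median rho lay between 0.185 and 0.271. The causes were not tested. Depth limits rare members: Pmaip1 reached 5 reads in 4 of 21 micronucleated cells and 5 of 14 others.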

Other observations

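Some genes outside the list of members followed Cdkn1a more closely than any member did, although the median rho was higher for the members (0.233) than for all measured genes (0.073). The 5 measured genes with the highest rho were Mtfr1l (0.684), Pex6 (0.617), Prrc2b (0.612), Tor1a (0.601) and Flrt2 (0.589); the first of these, a regulator of mitochondrial shape, had 0.614 in micronucleated cells, 0.758 in the others and 0.682 after thinning. Pex6, a peroxisomal import factor, had at least 5 reads in 6 cells only. The 5 lowest were mt-Nd2, a mitochondrially encoded subunit of complex I (−0.529), the autophagy gene Gabarapl2 (−0.519), Vldlr (−0.506), the small RNA gene Rny3 (−0.504) and Nanos1 (−0.500). Vldlr and Nanos1 also had at least 5 reads in 6 cells only. With 8389 genes ranked, extremes of this size are a description of these cells. Among the members Psrc1 ranked at 29, Zmat3 at 49 and Trp53inp1 at 99.

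Micronucleated cell 10 had at least 5 reads of all 9 macrophage markers, 16047 CPM in sum, together with 2542 CPM of Col1a1 and 10256 CPM of the 10 fibroblast markers. Its Cdkn1a stood at 814 CPM and its other measured members without Rps27l at 2243 CPM, near the median of 2288 CPM over all cells.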
